A study of Mus musculus with 16 samples.

Results

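The ADAM and ADAMTS genes encode 2 related families of metalloproteases, and 48 of them were detected in the nuclei of the mouse hippocampus described here. Members were chosen by symbol (names that start with Adam and a digit, or with Adamts) and by a measured value: at least 50 unique molecular identifiers (UMIs, each standing for 1 captured RNA molecule) summed over all nuclei of the 16 libraries. Of 57 such genes among the 32285 genes listed, 48 passed, against 23691 genes of the whole table that passed the same minimum. The lowest members were Adam29 with 139 UMIs, Adam7 with 172 and Adam34 with 173. The highest gene below the minimum was Adam39 with 36 UMIs, followed by Adam25 with 27, Adam20 with 22, Adam30 with 9, Adam24 with 7, Adam26a with 4, Adam26b with 2, Adam6b with 1 and Adam6a with 0. Because the sum over nuclei chose the members, their presence is a description and not a result.

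The study sequenced nuclear RNA from the hippocampus of female mice aged 9 months with 10x Genomics 3' chemistry, in 4 groups of 4 mice that combine the Ch25h genotype with the presence or absence of tau: Ch25h+/+ Tau- and Ch25h+/+ Tau+ mice with intact Ch25h, and Ch25h-/- Tau- and Ch25h-/- Tau+ mice without it. Ch25h encodes cholesterol 25-hydroxylase, an interferon-induced enzyme that makes 25-hydroxycholesterol, and its loss was crossed with tau to ask what this enzyme contributes in tau mice. The labels do not name the tau line, its promoter, or which cells express it, and they name no other allele and no treatment. They also give no litter or preparation day, so p-values measure the spread between these mice only.

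The libraries held 51270831 to 84870650 UMIs and 8130 to 11654 nuclei each. No library was a copy of another, and any pair shared 0.119 to 0.465% of the barcodes of the smaller one. Replicates 1 and 2 of every group separated from replicates 3 and 4 on the first principal component in all 9 classes tested, in 16 of 16 libraries. These are called the 2 sets of libraries below, and the labels give no reason for them. The 3' counts of Ch25h were 8 to 36 UMIs per library and were not lower in the libraries labelled Ch25h-/-. Among Tau- mice they were at 0.204 to 0.436 CPM (UMIs of a gene per 1000000 UMIs) in those labelled Ch25h-/- and 0.147 to 0.24 in those labelled Ch25h+/+, and among Tau+ mice at 0.294 to 0.554 and 0.32 to 0.778. These counts go against the label, whether they lie in the deleted part of the gene was not tested, and every direction by Ch25h genotype below rests on the labels. Gm43049 was at 67.4 to 87 CPM in every Tau+ library and at most 0.207 CPM in every Tau- library.

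ADAM proteins are mostly membrane-anchored, with a metalloprotease domain that sheds the outer parts of other membrane proteins and a disintegrin domain that binds partners. ADAMTS proteins are secreted, carry thrombospondin repeats and cut components of the extracellular matrix such as the hyaluronan-binding proteoglycans, procollagens and reelin. ADAMTS-like (ADAMTSL) proteins keep the thrombospondin repeats and lack the protease domain. In brain, ADAM10 is the main alpha-secretase of the amyloid precursor protein and cuts Notch receptors, ADAM17 releases tumour necrosis factor, and ADAM11, ADAM22 and ADAM23 have lost catalysis and act as receptors of the secreted LGI proteins at synapses.

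Catalysis depends on a zinc ion held by 3 histidines, with a glutamate beside the first of them. The stretch of coding sequence around that site is shown for members the results turn on, because it separates the proteases from the members that cannot cut. Each line gives 36 bases, 12 codons, 5' to 3' on the coding strand of the mouse GRCm38 genome with GENCODE M21 annotation. Capitals mark the codons of the 3 zinc-binding histidines and of the catalytic glutamate. In Adam22, Adam23 and Adam18 the stretch is the one that aligned with the Adam12 site, and capitals mark those of the 4 codons that were kept.
Adam10: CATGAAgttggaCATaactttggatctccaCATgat
Adam17: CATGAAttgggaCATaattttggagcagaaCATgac
Adam12: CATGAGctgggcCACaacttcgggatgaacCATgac
Adamts4: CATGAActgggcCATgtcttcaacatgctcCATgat
Adamts6: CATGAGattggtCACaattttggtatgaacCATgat
Adam22: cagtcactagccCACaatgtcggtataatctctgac
Adam23: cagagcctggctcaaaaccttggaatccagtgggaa
Adam18: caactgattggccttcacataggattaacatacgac
The sites of Adam12 (chr7:133961155-133961190, minus strand), Adam17 (chr12:21336729-21336764, minus strand), Adam22 (chr5:8143061-8143096, minus strand), Adam23 (chr1:63547763-63547798, plus strand) and Adam18 (chr8:24647845-24647880, minus strand) each lay in 1 coding exon. Those of Adam10 (chr9:70754296-70761588, plus strand), Adamts6 (chr13:104352847-104366812, plus strand) and Adamts4 (chr1:171253210-171253918, plus strand) were split over 2 exons, so these coordinates include an intron.

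The full set of 4 codons was found in 32 of the 48 members. It was in 19 of 19 ADAMTS members, 13 of 24 ADAM members and 0 of 5 ADAMTSL members. The 11 ADAM members without it were the neuronal receptors Adam11, Adam22 and Adam23, and Adam2, Adam3, Adam4, Adam5, Adam7, Adam18, Adam29 and Adam32, most of which are known from testis or epididymis. In the aligned stretch Adam22 kept 1 of the 4 codons, and Adam23 and Adam18 kept 0, whereas Adam4, Adam7 and Adam29 kept the 3 histidine codons and lacked the glutamate codon. No stretch of Adam11 aligned. The eighth codon of the stretch encoded glycine in 13 of 13 ADAM members with the site and in 13 of 19 ADAMTS members, and asparagine in Adamts1, Adamts4, Adamts9, Adamts15 and Adamts20, which belong to the group of ADAMTS enzymes that cut hyaluronan-binding proteoglycans. Not every member of that group had asparagine: the codon encoded glycine in Adamts5 and serine in Adamts8. Adamts19 was left out when the sites were placed on exons. Among the sites placed, 22 of 23 ADAM sites lay within 1 exon and 18 of 18 ADAMTS sites were split over 2. Adam1a and Adam1b have the same site sequence. How alike they are elsewhere was not tested, so their separate counts may be uncertain.

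Levels below are CPM, here per 1000000 UMIs of a class, where a class is a group of nuclei clustered without the ADAM and ADAMTS genes and named from other marker genes. A mean ± SD is over the libraries with at least 20 nuclei of the class. Free RNA in barcodes under 100 UMIs gives a level for comparison. The share of free RNA among the UMIs of nuclei was not measured, so this level is not the amount it adds to a class. The 15 named classes differed in depth, from a median of 1026 UMIs per nucleus in mural cells to 11877 in CA3 pyramidal neurons, and a class with few nuclei (303 endothelial, 402 mural) gives wide spreads. The levels of 1 gene are compared between classes, and levels of different genes are not compared, since a 3' count has no length scale. No test is given for these levels.

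**Figure D1:**
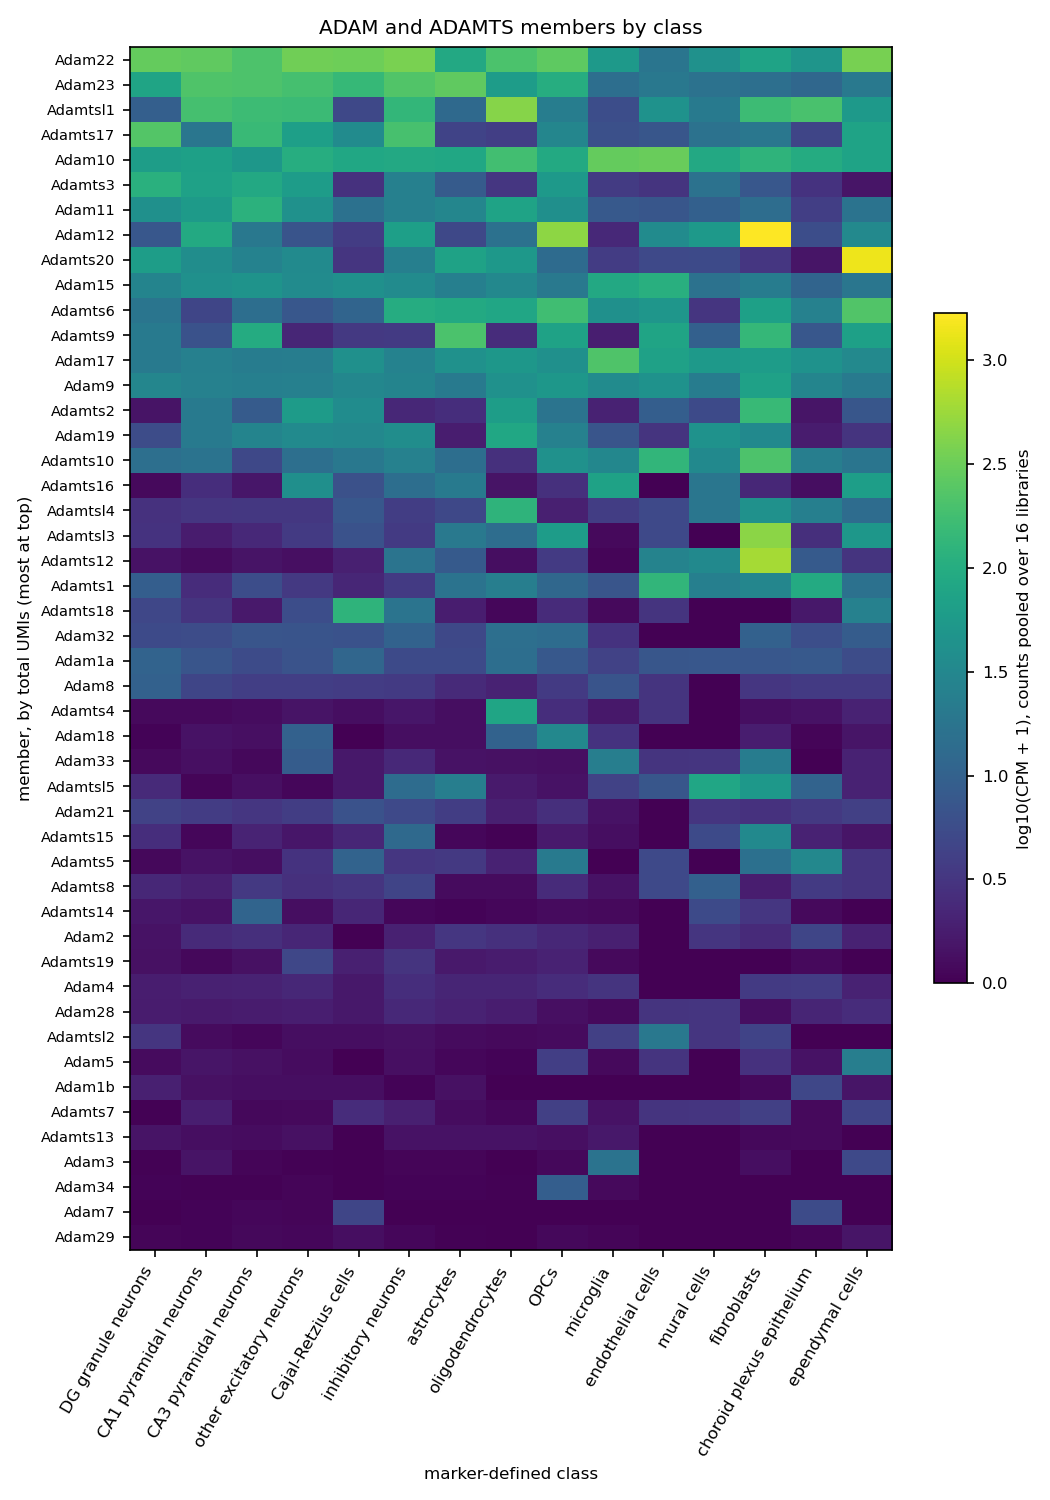
Heat map of the 48 members (rows, most UMIs at the top) in the 15 marker-defined classes (columns), coloured by log10(CPM + 1) from counts pooled over the 16 libraries. Adam22 and Adam10 are bright in most classes, whereas Adam12, Adamtsl3 and Adamts12 peak in fibroblasts and Adamts20 in ependymal cells.

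The members were spread over every compartment of the tissue. Fibroblasts were the highest class for 7 members, oligodendrocytes for 6, and choroid plexus epithelium, ependymal cells and microglia for 5 each. Endothelial cells were highest for 4, DG granule neurons and mural cells for 3 each, CA3 pyramidal neurons, Cajal-Retzius cells, OPCs (oligodendrocyte precursors) and astrocytes for 2 each, and inhibitory and other excitatory neurons for 1 each. The highest class exceeded the next by at least 2-fold for 19 members and by under 1.5-fold for 20. For 8 members it was above the next in all 16 libraries, but for 3 of these the next class was endothelial or mural cells, with 1 to 71 nuclei per library. Members with choroid plexus epithelium as highest or next class could not reach that count. Ch25h+/+ Tau- replicate 4 and Ch25h-/- Tau+ replicate 4 had 0 nuclei of it. Where both classes had at least 20 nuclei, the highest was above the next in 16 of 16 libraries for Adamts17 and Adam34, 15 of 15 for Adamts20, Adamtsl4 and Adam3, 9 of 9 for Adamts12 and 6 of 6 for Adam17 and Adamts4. A class is a sum over clusters, and for 7 of the 48 members 1 cluster of another class, with at least 50 UMIs of the gene, was above the level of the highest class. These were Adamts16 (109 CPM) and Adam33 (36.2) in the same cluster of 1594 other excitatory neurons, Adam22 (391) and Adam19 (108) in 2 further excitatory clusters, Adamts17 (448) and Adam28 (6.29) in 1 inhibitory cluster, and Adamtsl1 (653) in a fibroblast cluster.

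Counts of the catalytically inactive receptors were spread over neurons and some glial and ependymal classes. Adam22, which anchors LGI proteins to the postsynaptic scaffold, was at 376 ± 19.8 CPM in inhibitory neurons (SD, n = 16), 334 ± 20.3 in other excitatory neurons (n = 16) and 366 ± 72.8 in ependymal cells (n = 15), levels that overlapped between libraries. Its lowest class was endothelial cells at 16.7 CPM, below the 222 CPM of free RNA. Adam23, the presynaptic LGI receptor, was at 272 ± 84.7 CPM in astrocytes (n = 16), from 156 to 438, and at 221 ± 13.8 in inhibitory neurons (n = 16). Astrocytes were above inhibitory neurons in 11 of 16 libraries, so these 2 classes do not separate. Adam11 was at 116 ± 10.9 CPM in CA3 pyramidal neurons (n = 16), close to its free RNA level of 114 CPM, at 76.3 ± 67.9 in oligodendrocytes (n = 16) and at 56.6 ± 5.5 in CA1 pyramidal neurons (n = 16), both means below that level.

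Among the active sheddases, Adam10 and Adam17 shared microglia as a high class. Adam10 was at 303 ± 37.7 CPM in microglia (n = 16), 338 ± 57.5 in endothelial cells (n = 6) and 179 ± 14.9 in oligodendrocytes (n = 16), whereas CA3 pyramidal neurons had 50.5 CPM. Adam17 had its lowest, median and highest microglial library at 177, 212 and 246 CPM, and microglia were 3.19-fold above endothelial cells, the next class, in pooled counts. DG granule neurons had 20.2 CPM of Adam17. Adam15, a disintegrin that binds integrins, was at 84.3 ± 13.4 CPM in microglia (n = 16) and 119 ± 26.9 in endothelial cells (n = 6), against 82.1 CPM in free RNA.

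Other active ADAM members differed in their highest class. Adam9 was at 57.6 ± 23.2 CPM in fibroblasts (n = 15) and 50.1 ± 7.99 in OPCs (n = 16). Adam19, a protease of neuregulin, was highest by class in oligodendrocytes at 85.4 ± 16 CPM (n = 16), ahead of inhibitory neurons at 37.2 ± 4.07 (n = 16), while 2 clusters of other excitatory neurons (416 and 1958 nuclei) had 108 and 85 CPM. Adam8 was highest in DG granule neurons at 9.21 ± 1.39 CPM (n = 16) and was at 5.47 ± 4.02 in microglia (n = 16). Adam8 is known as a leukocyte protease, and its free RNA level of 6.11 CPM lay between these values, so the microglial level was below that of free RNA.

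Adam12, a protease of fusing and mesenchymal cells, had 2 separate high classes. It was at 1700 ± 305 CPM in fibroblasts (n = 15) and at 476 ± 50.4 in OPCs (n = 16), with fibroblasts above OPCs in 15 of 16 libraries. CA1 pyramidal neurons had 88.2 ± 11.9 CPM (n = 16), and microglia 1.36 CPM. Adam33, its close relative, was at 23 ± 17.1 CPM in microglia (n = 16), from 2.47 to 64, although 64.9% of its UMIs in named classes came from other excitatory neurons at 7.58 ± 2.32 CPM (n = 16).

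The ADAMTS enzymes that cut hyaluronan-binding proteoglycans divided among glia and ventricular lining. Adamts4, the aggrecanase-1 gene, was confined almost wholly to oligodendrocytes among the named classes: its lowest, median and highest oligodendrocyte libraries were at 58.5, 78.1 and 115 CPM, and 92.9% of its UMIs were there. Adamts20 was at 1386 ± 370 CPM in ependymal cells (n = 15), 19.6-fold above astrocytes in pooled counts. Adamts9 was highest in astrocytes at 202 ± 19.6 CPM (n = 16), with CA3 pyramidal neurons at 95.2 ± 9.28 (n = 16) and microglia at 0.84.

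Other members of the same group had high levels in endothelial cells, choroid plexus epithelium or fibroblasts. Adamts1 was at 158 ± 76.6 CPM in endothelial cells (n = 6) and 89.2 ± 33 in choroid plexus epithelium (n = 13). Adamts5 was at 35.5 ± 17.9 CPM in choroid plexus epithelium (n = 13) and 20.3 ± 6.5 in OPCs (n = 16). Adamts15 was at 29.8 ± 11.8 CPM in fibroblasts (n = 15) and 11.5 ± 3.6 in inhibitory neurons (n = 16). These 3 genes encode aggrecanases and versicanases. Adamts8 had its highest level in mural cells on only 4 UMIs, so its order of classes is not determined at this depth.

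The procollagen N-proteinases Adamts2, Adamts3 and Adamts14 differed in their highest class. Adamts2 was at 150 ± 27.9 CPM in fibroblasts (n = 15), 59.3 ± 17.8 in oligodendrocytes (n = 16) and 58.9 ± 15.6 in other excitatory neurons (n = 16), with DG granule neurons at 0.47. Adamts3, which also cuts reelin, had 112 ± 9.79 CPM in DG granule neurons (n = 16) and 89.1 ± 17.4 in CA3 pyramidal neurons (n = 16). Adamts14 was highest in CA3 pyramidal neurons at 9.74 ± 3.19 CPM (n = 16), where 82% of its UMIs lay.

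The other ADAMTS genes differed in their highest class. Adamts17 was highest in DG granule neurons, with lowest, median and highest libraries at 178, 232 and 266 CPM, and inhibitory neurons had 192 ± 17.1 (n = 16), below it in each of 16 libraries. A smaller cluster of inhibitory neurons (1202 nuclei, with Nkx2-1 among its leading genes) had 448 CPM, above both DG granule neuron clusters at 228 and 224. CA1 pyramidal neurons had 18.5 ± 5.93 CPM (n = 16), so Adamts17 differed widely among the principal neurons of the hippocampus. Adamts12 was at 587 ± 212 CPM in fibroblasts (n = 15), 18.9-fold above mural cells in pooled counts. Adamts18 was at 95.5 ± 71.5 CPM in Cajal-Retzius cells (n = 14), from 0 to 205, and at 16.3 ± 3.97 in inhibitory neurons (n = 16). Of the 2 Cajal-Retzius clusters, the one led by Eomes had 182 CPM of Adamts18 and only 2.82 CPM of Reln, the defining Cajal-Retzius gene. The other had 1.01 CPM of Adamts18 and 9444 CPM of Reln, so nearly all Adamts18 counts of the class lay in the Eomes cluster, and the low Reln level there goes against the name of the class.

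Adamts6, whose protein is linked to fibrillin microfibrils, was at 214 ± 98.9 CPM in ependymal cells (n = 15), 171 ± 25.3 in OPCs (n = 16) and 96.8 ± 17.2 in inhibitory neurons (n = 16). DG granule neurons were among its low classes at 18 ± 10.5 CPM (n = 16). Its paralogue Adamts10 was at 225 ± 36 CPM in fibroblasts (n = 15) and 133 ± 77.7 in endothelial cells (n = 6). Adamts16 was at 72 ± 21.9 CPM in microglia (n = 16), while 65.8% of its UMIs were in other excitatory neurons at 40.1 ± 6.37 (n = 16). Adamts19 reached 3.68 ± 1.4 CPM in other excitatory neurons (n = 16), where 1 cluster of 2709 nuclei had 20.1 CPM and each of the others under 1 CPM. Adamts7 reached 3.62 CPM in ependymal cells, a class of 810 nuclei with 2 to 110 per library. Adamts13, the von Willebrand factor protease, reached 0.63 CPM in microglia, which is below its 1.47 CPM in free RNA.

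Of the ADAMTSL genes, which lack the protease domain, 2 were highest in oligodendrocytes by class. Adamtsl1 was at 414 ± 116 CPM there (n = 16), below the 653 CPM of a fibroblast cluster of 659 nuclei led by Slc47a1, and at 191 ± 50.1 in CA1 pyramidal neurons (n = 16), but at 8.68 ± 2.75 in DG granule neurons (n = 16). Adamtsl4, which binds fibrillin, had its lowest, median and highest oligodendrocyte libraries at 75, 116 and 147 CPM, with 70.7% of its UMIs. Adamtsl3 was at 425 ± 240 CPM in fibroblasts (n = 15), with OPCs next at 58.5 ± 11.3 (n = 16). The fibroblast value came from 1 of the 2 fibroblast clusters: the same 659 nuclei had 1971 CPM and the other 2457 nuclei 7.05 CPM. Adam12 and Adamts12 had the reverse order, with 534 and 109 CPM in the Slc47a1 cluster and 2003 and 745 CPM in the other. Adamtsl5 was at 79 ± 24.8 in mural cells (n = 9). Adamtsl2 was highest in endothelial cells at 18.7 CPM, in a class of 303 nuclei with 1 to 48 per library.

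The ADAM genes known from testis were mostly at a few CPM, with exceptions in glia. Adam18 was at 33 ± 20.1 CPM in OPCs (n = 16), 10 ± 7.94 in other excitatory neurons (n = 16) and 9.21 ± 2.7 in oligodendrocytes (n = 16). Adam3 had its lowest, median and highest microglial libraries at 4.31, 18.4 and 25 CPM, and Adam34 its OPC libraries at 1.64, 7.3 and 16.7 CPM. Adam5 was at 22.2 ± 17.2 CPM in ependymal cells (n = 15). Adam32 was at 13.8 ± 3.54 CPM and Adam1a at 14 ± 2.76 in oligodendrocytes (n = 16 each), and Adam21 at 5.82 ± 6.55 in Cajal-Retzius cells (n = 14). Mapkapk5, Gm42878 and Gm15547 overlap Adam1a on the same strand, Gm5347 and Gm35629 overlap Adam34, and Gm20498 and Cox16 overlap Adam4. The part of these overlapping genes in the counts was not tested. The highest pooled levels of Adam1b, Adam2, Adam4, Adam7, Adam28 and Adam29 lay between 0.517 and 4.54 CPM, and that of Adam2 (3.7 CPM in choroid plexus epithelium) was below its 7.95 CPM in free RNA.

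**Figure D2:**
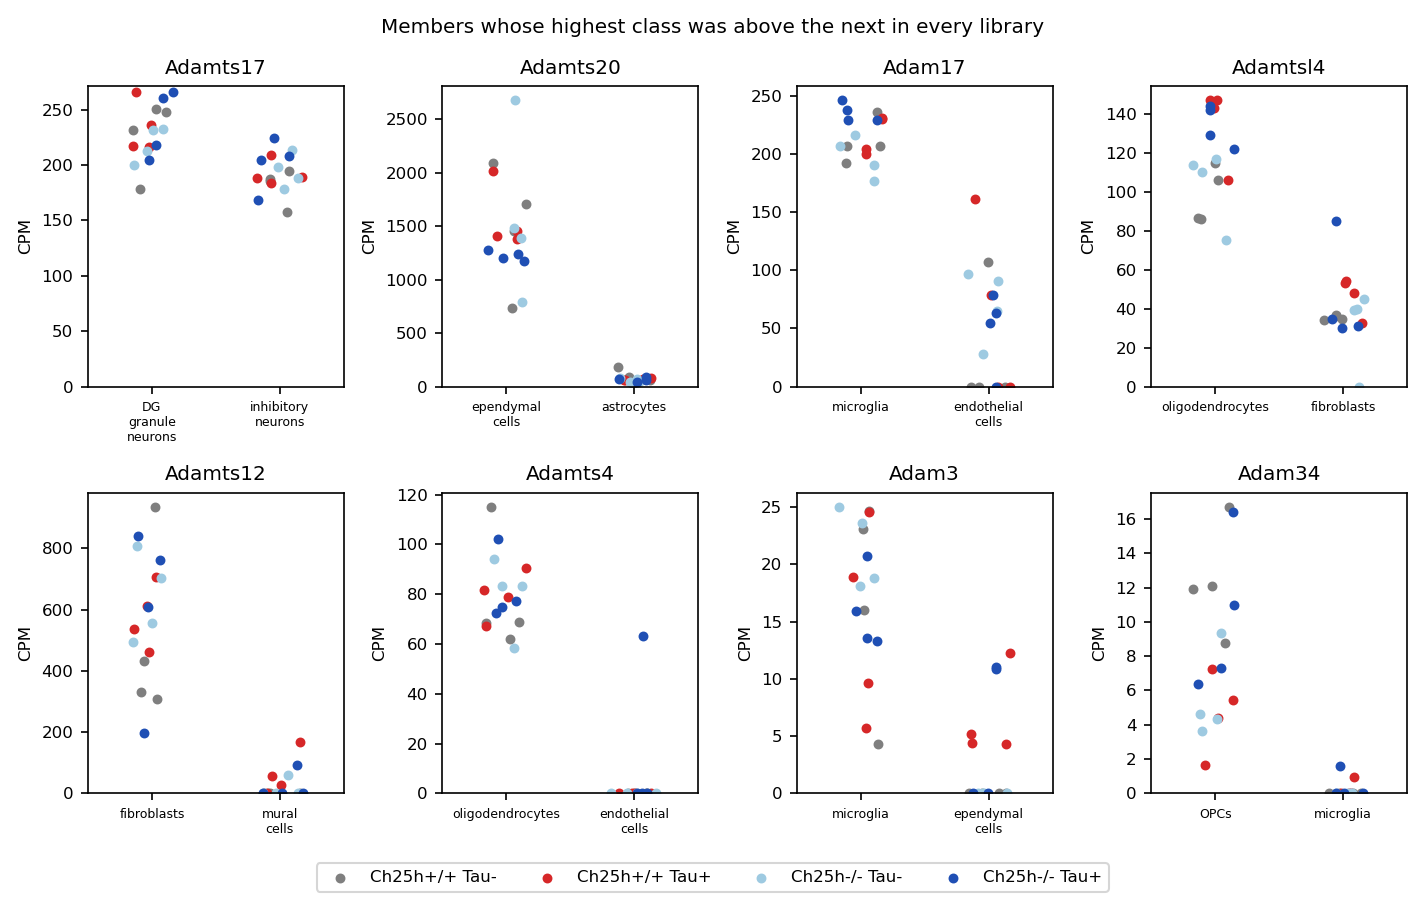
CPM of the 8 members whose highest class was above the next class in 16 of 16 libraries, with 1 point per library in each of the 2 classes and colours for the 4 groups. Adam17 lies between 177 and 246 CPM in microglia, and Adamts4 between 58.5 and 115 CPM in oligodendrocytes, with 0 UMIs in endothelial cells of every library except 1, where a single UMI gave 63.2 CPM.

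The spread of members between mice of 1 group was mostly like that of other genes, and 2 pairs stood far above it. Over the 124 pairs of a member and a class whose libraries averaged 50 UMIs or more (31 members), the median coefficient of variation within groups was 14.6%, against 13.5% over all 69413 gene and class pairs of that depth. Adam11 in oligodendrocytes had 95.7% and Adam18 in other excitatory neurons 93%, where the 99th percentile of all pairs was 49.7% and 27 and 30 of all pairs were as high or higher. The next was Adamts20 in astrocytes at 43.9%, from 20.7 to 181 CPM, and both of these extremes were Ch25h+/+ Tau- mice. The threshold and these pairs were chosen after their values were seen.

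Adam11 in oligodendrocytes ranged over 18.9-fold. In replicates 1 to 4 it was at 145, 15.1, 154 and 11.9 CPM in Ch25h+/+ Tau- and at 225, 28, 17.3 and 91.1 CPM in Ch25h+/+ Tau+. In Ch25h-/- Tau- it was at 17.2, 121, 112 and 12.3 CPM, and in Ch25h-/- Tau+ at 141, 22.1, 12.9 and 95.2 CPM. Every group held 2 libraries at 91.1 to 225 CPM and 2 at 11.9 to 28 CPM, and the groups overlapped fully. The same libraries did not differ in this way in CA3 pyramidal neurons, where Adam11 lay between 91.1 and 129 CPM. Adam11 lies on chr11:102761439-102780262 (plus strand) with no overlapping gene in GENCODE M21.

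Adam18 in other excitatory neurons ranged from 1 UMI to 178 UMIs per library. In replicates 1 to 4 it was at 20.5, 0.119, 8.94 and 0.0952 CPM in Ch25h+/+ Tau- and at 19.8, 6, 22 and 9.39 in Ch25h+/+ Tau+. In Ch25h-/- Tau- it was at 20.5, 0.213, 7.12 and 12.4 CPM, and in Ch25h-/- Tau+ at 7.74, 7.86, 0.11 and 17.4. The libraries of Ch25h+/+ Tau- replicates 2 and 4, Ch25h-/- Tau- replicate 2 and Ch25h-/- Tau+ replicate 3 were near 0 and the other 12 were at 6 CPM or more. In OPCs the 4 groups, in the same order, were at 59.6, 13, 30.1 and 6.04, at 62.5, 25.2, 63.9 and 16.4, at 48.9, 7.25, 35.7 and 26.9, and at 32.1, 53.4, 7.62 and 39.6 CPM. The same 4 libraries were the lowest there. The low libraries belong to 3 of the 4 groups and to both sets of libraries.

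Adam18 (chr8:24602246-24674755, minus strand) lies in a row with Adam3 (chr8:24677225-24725852), Adam5 (chr8:24727093-24824369), Adam32 (chr8:24836140-24948804) and Adam9 (chr8:24949611-25016927). No gene overlaps Adam18 in GENCODE M21. The cause of the spread of Adam11 and Adam18 was not tested.

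**Figure D3:**
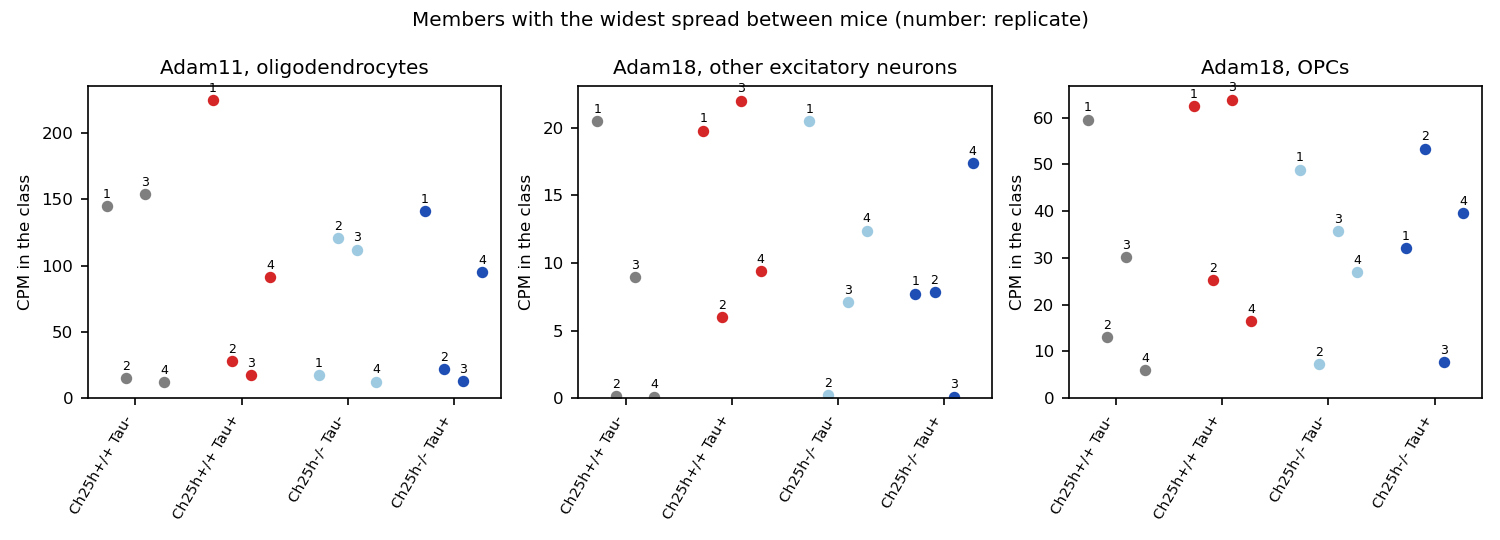
CPM of Adam11 in oligodendrocytes and of Adam18 in other excitatory neurons and OPCs, with 1 point per library, numbered by replicate, in each of the 4 groups. Each group has 2 high and 2 low libraries for Adam11 (91.1 to 225 against 11.9 to 28), and the 4 libraries near 0 for Adam18 in other excitatory neurons are also its lowest in OPCs (6.04 to 13).

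For the genotype comparisons, counts were summed per library within each of 9 classes and tested with edgeR's quasi-likelihood test, with Benjamini-Hochberg adjustment over all genes of a class. A pair of a gene and a class is called at an adjusted p under 0.05. Of the 48 members, 41 passed the filter on low counts in at least 1 class, giving 223 pairs. Fibroblasts, choroid plexus epithelium and ependymal, endothelial, mural and Cajal-Retzius cells had too few nuclei in some libraries and were not tested. They were the highest class of 7, 5, 5, 4, 3 and 2 members in that order. The effect of tau was taken in Ch25h+/+, in Ch25h-/- and over both, and the comparison over both uses the same libraries as the other two.

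With tau, 4 members were called by edgeR, each in 1 class, and DESeq2 called all 4. Adamtsl3 and Adam12 rose in astrocytes, Adamts6 rose in DG granule neurons and Adamtsl1 fell in CA1 pyramidal neurons. Of these, Adamtsl3 kept its call with any single library left out. The other 3 lost theirs in 9 to 13 of the 16 such fits over both genotypes. Adam12 passed the filter on low counts in astrocytes only through Tau+ libraries. In Ch25h+/+ mice 1 of 223 pairs was called, against a background of 0.217% of all gene and class pairs. In Ch25h-/- mice 1 of 223 was called, against 0.0955%. Over both genotypes 4 of 223 were called, 3 higher and 1 lower, against 0.968%. At an unadjusted p under 0.05 the 3 comparisons had 22, 23 and 22 member pairs, or 9.87%, 10.3% and 9.87%, beside 6.65%, 7.67% and 9.82% of all pairs. The median log2 fold change of the member pairs was 0.06, 0.00 and 0.03, and that of all pairs 0.00 in each. The share of member pairs with a positive change was 64.1%, 50.7% and 57.0%, beside 49.5%, 49.1% and 49.8% of all pairs.

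Adamtsl3 encodes a secreted ADAMTS-like glycoprotein without a protease domain (chr7:82335694-82614450, plus strand; Gm44919 overlaps it on the same strand). In astrocytes it was at 10, 9.33, 10.6 and 9.67 CPM in the Ch25h+/+ Tau- mice and at 40.3, 30.1, 21.9 and 30.1 CPM in the Ch25h+/+ Tau+ mice. In Ch25h-/- it was at 17.5, 7.07, 9.18 and 11.5 CPM without tau and at 24.4, 33.9, 14.1 and 20.3 CPM with tau. All 4 Ch25h+/+ Tau+ mice were above all Ch25h+/+ Tau- mice, and in Ch25h-/- the groups overlapped, with 1 Tau+ mouse (14.1) below the highest Tau- mouse (17.5). All 16 values were above the 3.89 CPM of Adamtsl3 in free RNA.

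The log2 fold change of Adamtsl3 with tau in astrocytes was 1.56 ± 0.26 (SE; edgeR adjusted p = 0.00778) in Ch25h+/+ and 1.31 ± 0.18 (edgeR adjusted p = 0.00075) over both genotypes. In Ch25h-/- it was 1.06 ± 0.26 (edgeR adjusted p = 0.143), which was not called, while DESeq2 called it (1.05 ± 0.29, adjusted p = 0.0339), as did edgeR without Ch25h-/- Tau+ replicate 3. The difference between the 2 genotypes was -0.50 ± 0.37 (edgeR adjusted p = 1). In the first set of libraries alone (replicates 1 and 2) the change over both genotypes was 1.51 (edgeR adjusted p = 0.000269), and in the second set (replicates 3 and 4) it was 1.01 (edgeR adjusted p = 0.0725). The call held with each of the 16 libraries left out in turn.

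Adamtsl3 had values in the same direction in oligodendrocytes, where all Tau- libraries lay between 4.88 and 7.1 CPM and the Tau+ libraries between 6.32 and 36. The change over both genotypes there was 1.52 ± 0.34 (edgeR adjusted p = 0.0754), and in Ch25h+/+ alone 1.77 ± 0.46 (edgeR adjusted p = 0.405), neither of which was called. The change over both genotypes was called by DESeq2 (1.54, adjusted p = 0.00164), with the 2 sets of libraries as a block in edgeR (1.57, adjusted p = 0.0123), with the first set alone, and without replicate 3 of Ch25h+/+ Tau+ or of Ch25h-/- Tau+. OPCs, the highest tested class for Adamtsl3, had 0.38 ± 0.12 (edgeR adjusted p = 0.408), and DG granule neurons 0.00. Whether the classes differ in this change was not tested.

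Adam12, a membrane-anchored protease with both catalytic and disintegrin domains (chr7:133883199-134232146, minus strand; Gm23631, Gm19514 and A130023I24Rik overlap it on the same strand), rose in astrocytes on low counts, 1 to 31 UMIs per library. It was at 0.772, 2.8, 2.76 and 1.55 CPM in Ch25h+/+ Tau- mice and 7.82, 7.11, 2.73 and 3.01 CPM in Ch25h+/+ Tau+ mice. In Ch25h-/- it was at 2.92, 1.63, 1.64 and 1.97 CPM without tau and 10.9, 5.47, 1.13 and 6.56 CPM with tau. The groups overlapped within both genotypes, and 6 of 8 Tau+ mice were above all 8 Tau- mice. Every one of these values was below the 21.1 CPM of Adam12 in free RNA, and the part of free RNA in the change was not tested.

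The log2 fold change of Adam12 in astrocytes over both genotypes was 1.44 ± 0.37 (edgeR adjusted p = 0.0346). The call was lost in 10 of the 16 fits that left out 1 library, with adjusted p up to 0.121, and when doublets were kept (0.0535). It held without Ch25h+/+ Tau+ replicate 3 or 4, Ch25h+/+ Tau- replicate 2 or 3, Ch25h-/- Tau+ replicate 3 or Ch25h-/- Tau- replicate 1. In OPCs, its highest tested class, the change was -0.03 ± 0.07, and in CA1 pyramidal neurons 0.14 ± 0.10. In the second set of libraries Adam12 did not pass the filter on low counts in astrocytes. Over all 16 libraries it passed this filter only through Tau+ libraries, since every Tau- value was at most 2.92 CPM. Without the filter the change over both genotypes was 1.43 ± 0.34 (edgeR adjusted p = 0.0106).

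By class both astrocyte genes are highest in fibroblasts, Adamtsl3 through 1 of the 2 fibroblast clusters (1971 CPM, against 7.05 CPM in the other). The markers of other cells were therefore measured in the same astrocyte sums. The summed fibroblast list (10 of 10 markers with UMIs) was 252 CPM in Tau- and 212 CPM in Tau+ mice, and the groups overlapped in both genotypes. Most of that sum was Ranbp3l, at means of 159 and 112 CPM in Ch25h+/+ without and with tau and 168 and 135 in Ch25h-/-, and Cped1, at 62.7 to 68.4 CPM in the 4 groups. The other genes of the list did not share 1 direction. Col1a2 and Bnc2 were higher with tau on few UMIs: Col1a2 was at means of 0.656 and 2.92 CPM in Ch25h+/+ and 0.839 and 3.02 in Ch25h-/-, and Bnc2 at 0.946 and 4.47 and at 1.23 and 3.19. Col1a1 was lower with tau, at 13.7 and 11.6 CPM in Ch25h+/+ and 14.4 and 11.7 in Ch25h-/-. Dcn was at 4.38 and 4.69 CPM in Ch25h+/+ and 4.98 and 2.22 in Ch25h-/-. Slc6a13, Slc47a1, Col3a1 and Lum were at most 0.667 CPM in any group. Adamts12, another member high in fibroblasts, was at 7.58 and 7.25 CPM in Ch25h+/+ and 6.37 and 7.12 in Ch25h-/-. Adamts10, also high in fibroblasts, was at 18.7 and 11.3 CPM in Ch25h+/+ and 12.5 and 13.4 in Ch25h-/-. The remaining members with fibroblasts as highest class are not shown here. The ependymal list went from 48.4 to 87.6 CPM, without overlap in Ch25h+/+ (45.3 to 50.2 against 84.7 to 91.9). The Cajal-Retzius list went from 25.4 to 37.3 CPM, without overlap in Ch25h-/-, and the DG granule neuron list from 1243 to 1532 CPM, without overlap in Ch25h+/+. The fibroblast cluster that holds Adamtsl3 was looked at separately, after its values were seen. Its 10 leading genes summed to means of 2.68 CPM in astrocytes of Ch25h+/+ Tau- mice and 7.47 in Ch25h+/+ Tau+ mice, without overlap, and to 3.27 and 4.77 in Ch25h-/-, with overlap. The group means of the sum were higher with tau in both genotypes, as were those of Adamtsl3. Bnc2 is one of these 10. Without and with tau it held 9 of 22 and 45 of 76 UMIs of the sum in Ch25h+/+. In Ch25h-/- it held 10 of 28 and 25 of 37 UMIs, so Bnc2 rose there by more UMIs than the whole sum. Slc47a1 was at 0.539 and 0.182 CPM in Ch25h+/+ and at 0.0822 and 0.362 in Ch25h-/-. In oligodendrocytes the means of the same sum were lower with tau, with overlap in both genotypes. They were 5.95 and 4.26 CPM in Ch25h+/+ and 8.96 and 5.99 in Ch25h-/-. The means of Adamtsl3 in oligodendrocytes were higher with tau, at 5.5 and 19.5 CPM in Ch25h+/+ and at 6.35 and 15.4 in Ch25h-/-. The part of fibroblasts and of the other listed cells in the astrocyte results was not tested.

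Adamts6 encodes a secreted metalloprotease with the full zinc site shown above (chr13:104287835-104496695, plus strand). In DG granule neurons it was at 14.3, 11.3, 9.42 and 13.9 CPM in Ch25h+/+ Tau- mice and at 15.1, 24.8, 22.5 and 16.5 CPM in Ch25h+/+ Tau+ mice. In Ch25h-/- it was at 11.7, 9.68, 6.97 and 9.18 CPM without tau and at 46.5, 26.6, 16.4 and 33.4 CPM with tau. All 8 Tau+ mice were above all 8 Tau- mice, and the highest 3 values were in Ch25h-/- Tau+. The free RNA level of Adamts6 was 14.7 CPM: all 8 Tau- values were below it, the Tau+ values of 15.1, 16.4 and 16.5 were close to it and the other 5 were at 22.5 CPM or more. The part of free RNA in the change was not tested.

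The log2 fold change of Adamts6 with tau in DG granule neurons was 1.73 ± 0.28 (edgeR adjusted p = 0.022) in Ch25h-/- and 1.20 ± 0.20 (edgeR adjusted p = 0.0288) over both genotypes. The difference between genotypes was 1.05 ± 0.39 (edgeR unadjusted p = 0.0171, adjusted p = 1), which was not called. The change over both genotypes was 1.18 in the first set of libraries and 1.20 in the second, not called in either (edgeR adjusted p = 0.137 and 0.309). Leaving out 1 library ended the Ch25h-/- call in 6 cases (Ch25h-/- Tau+ replicates 2 and 4 and each of the 4 Ch25h-/- Tau- replicates), with adjusted p up to 0.109. It ended the call over both genotypes in 9 cases, with adjusted p up to 0.0957: Ch25h+/+ Tau+ replicates 2 and 4, Ch25h+/+ Tau- replicates 1, 2 and 3, Ch25h-/- Tau+ replicate 4 and Ch25h-/- Tau- replicates 2, 3 and 4. Both calls were also lost without the filter on low counts (0.0725 and 0.0675).

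In the other excitatory classes the Adamts6 values had the same sign and were not called. The change with tau over both genotypes was 0.61 ± 0.18 in CA1 pyramidal neurons (edgeR adjusted p = 0.373), 0.46 ± 0.14 in CA3 pyramidal neurons (edgeR adjusted p = 0.242) and 0.48 ± 0.23 in other excitatory neurons (edgeR adjusted p = 0.685). In inhibitory neurons, astrocytes, oligodendrocytes, OPCs and microglia, where its level was higher, it was between -0.24 and -0.04. In DG granule neurons the summed marker lists of other cells changed between 0.813-fold and 1.39-fold with tau.

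Adamtsl1 encodes a secreted ADAMTS-like protein without a protease domain (chr4:85514172-86428385, plus strand). Sh3gl2 and Gm26069 overlap it on the same strand. In CA1 pyramidal neurons it was at 181, 200, 166 and 207 CPM in Ch25h+/+ Tau- mice and at 138, 126, 146 and 160 CPM in Ch25h+/+ Tau+ mice. In Ch25h-/- it was at 233, 256, 273 and 277 CPM without tau and at 159, 120, 206 and 201 CPM with tau. Within each genotype all Tau+ mice were below all Tau- mice, and 6 of 8 Tau+ mice were below all 8 Tau- mice. All 16 values were above the 70 CPM of Adamtsl1 in free RNA.

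The log2 fold change of Adamtsl1 with tau in CA1 pyramidal neurons was -0.51 ± 0.09 over both genotypes (edgeR adjusted p = 0.0447), and -0.58 ± 0.13 in Ch25h-/- (edgeR adjusted p = 0.206). The Ch25h-/- change was called by DESeq2 (-0.58, adjusted p = 0.0212), with the 2 sets of libraries as a block in edgeR (-0.60, adjusted p = 0.0425) and in the first set alone (-0.83, adjusted p = 0.0498). In the first set of libraries the change over both genotypes was -0.69 (edgeR adjusted p = 0.00673) and in the second -0.35 (edgeR adjusted p = 0.154). The call was close to the threshold: it was lost in the 13 of 16 fits that left out any library other than Ch25h-/- Tau+ replicate 2, 3 or 4 (adjusted p up to 0.144) and without TMM scaling factors (0.0763), in all of which the value stayed negative. In CA3 pyramidal neurons the change was -0.44 ± 0.13 (edgeR adjusted p = 0.224), with -0.71 in the first set alone, which was called (edgeR adjusted p = 0.000152), and -0.22 in the second (edgeR adjusted p = 0.627). In oligodendrocytes, its highest class, it was 0.38 ± 0.19 (edgeR adjusted p = 0.525). In the CA1 sums the marker lists of other cells changed between 0.793-fold and 1.26-fold with tau.

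**Figure D4:**
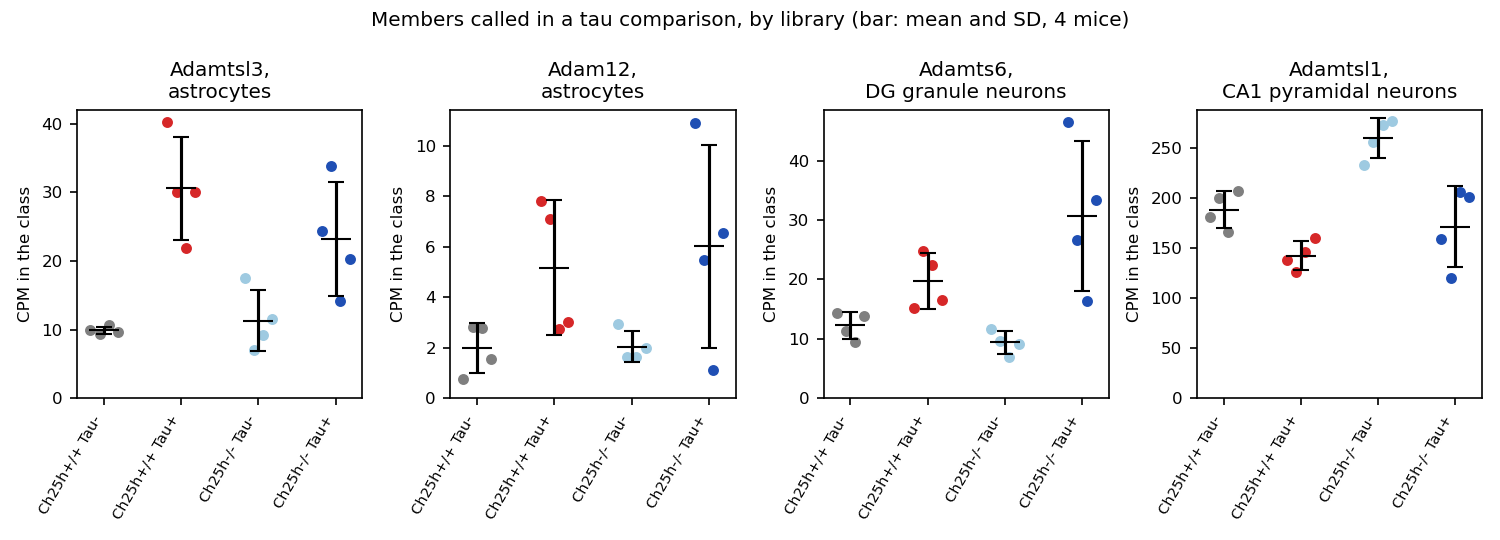
CPM of the 4 members called in a tau comparison, in the class of the call, with 1 point per mouse and the mean and SD of 4 mice per group. In DG granule neurons the 8 Tau+ values of Adamts6 all lie above the 8 Tau- values (15.1 to 46.5 against 6.97 to 14.3), and in CA1 pyramidal neurons Adamtsl1 is lower with tau within each Ch25h genotype.

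**Figure D5:**
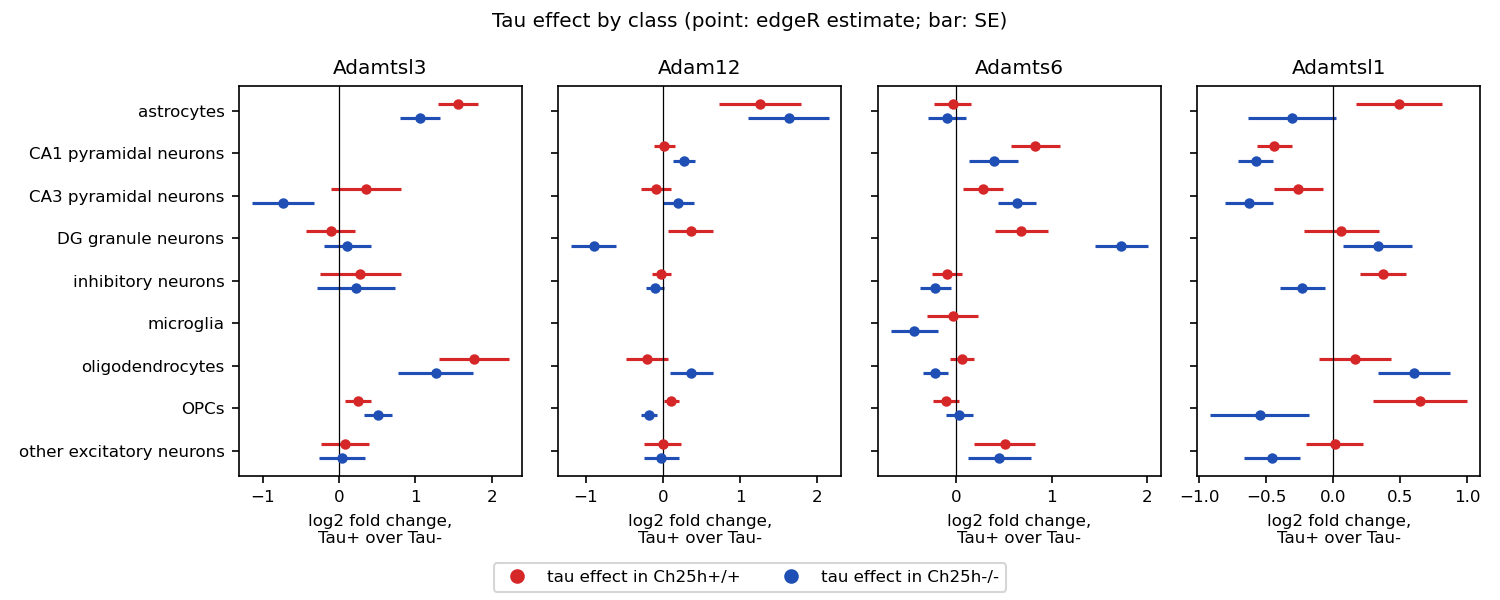
Log2 fold change of Tau+ over Tau- (edgeR estimate, bars are SE) for the same 4 members in each class where they were tested, in Ch25h+/+ and Ch25h-/- separately. Adamtsl3 lies above 1 in astrocytes and oligodendrocytes in both genotypes, and Adamts6 is highest in DG granule neurons of Ch25h-/- mice at 1.73.

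Of the members that were not called, Adamtsl4 in oligodendrocytes was near the threshold. It was at 98.5 ± 14.3 CPM in Ch25h+/+ Tau-, 136 ± 19.8 in Ch25h+/+ Tau+, 104 ± 19.5 in Ch25h-/- Tau- and 134 ± 10.5 in Ch25h-/- Tau+ (SD, n = 4 each). The log2 fold change over both genotypes was 0.42 ± 0.09 (edgeR adjusted p = 0.0547), and it was named after its values were seen. It was called by DESeq2 (adjusted p = 0.0058), with the 2 sets of libraries as a block in edgeR (0.011), without the filter on low counts (0.00335) and with the first set alone (0.0102). Adamts1 in astrocytes, at 0.70 ± 0.19 (edgeR adjusted p = 0.0372), and Adamtsl1 in CA1 pyramidal neurons of Ch25h-/- mice were called with the block, and Adamtsl4 in astrocytes, at 1.70 ± 0.50 (adjusted p = 0.023), by DESeq2. The astrocyte means of Adamtsl4 (3.72 CPM) and Adamts1 (16 CPM) stand beside free RNA levels of 7.49 and 13.1 CPM. The DESeq2 fit used the same filter on low counts as edgeR. Whether Adamtsl4 passed it in astrocytes only through Tau+ libraries, as Adam12 did, was not tested, and this limits that call. Adamts10 in astrocytes had -0.78 ± 0.22 with tau in Ch25h+/+ (edgeR adjusted p = 0.114). The sheddases Adam10 and Adam17 and the LGI receptors Adam11, Adam22 and Adam23 were called in none of the classes by edgeR on all 16 libraries. In the first set alone Adam23 was called in astrocytes, at 0.80 ± 0.14 in Ch25h+/+ (edgeR adjusted p = 0.00268) and 0.46 ± 0.10 over both genotypes (0.00759).

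No member was called for loss of Ch25h in any class. The count was 0 of 223 pairs in Tau+ mice (background 0.00597% of all pairs), 0 in Tau- mice (0.00341%) and 0 over both tau states (0.0128%) by edgeR, and 0 by DESeq2 in each. At an unadjusted p under 0.05 there were 13, 14 and 8 pairs, or 5.83%, 6.28% and 3.59%, beside 3.39%, 3.35% and 2.83% of all pairs. The interaction of tau and Ch25h had 0 called pairs by edgeR and by DESeq2 (background 0%), and 15 pairs at an unadjusted p under 0.05, or 6.73% beside 4.04%. The median log2 fold change of the member pairs was -0.01, 0.07, 0.02 and -0.07 in these 4 comparisons.

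The pairs with the lowest p-values in these comparisons all had an edgeR adjusted p of at least 0.813. Adamtsl1 in CA1 pyramidal neurons had a log2 fold change of 0.43 ± 0.13 with Ch25h loss in Tau- mice and 0.36 ± 0.09 over both tau states. In oligodendrocyte precursors Adamtsl1 had -0.89 ± 0.35 with Ch25h loss in Tau+ mice, and Adamts3 had 0.37 ± 0.14 over both tau states. In inhibitory neurons Adamts19 had -1.49 ± 0.47 in Tau+ mice, Adamts20 0.40 ± 0.12 in Tau- mice and Adamts12 0.37 ± 0.12 over both. Adamtsl4 in CA1 pyramidal neurons had -0.88 ± 0.31 in Tau+ mice, and Adam32 there had -0.70 ± 0.22 in Tau- mice. For the interaction, Adam12 in DG granule neurons had -1.26 ± 0.41, Adamts15 there -1.46 ± 0.49 and Adamts20 in inhibitory neurons -0.50 ± 0.17. None of these passed the threshold on all 16 libraries. Adamtsl1 in CA1 pyramidal neurons was called over both tau states in the second set of libraries alone (0.46 ± 0.08, edgeR adjusted p = 0.0418). It was also called there without Ch25h-/- Tau+ replicate 2.

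Genes that regulate these proteases or are cut by them were taken from 5 lists. Among 6 inhibitors in 38 pairs, A2m, the plasma protease inhibitor alpha-2-macroglobulin, rose in astrocytes with tau by 2.56 ± 0.33 in Ch25h+/+ (edgeR adjusted p = 0.00558), 2.65 ± 0.35 in Ch25h-/- (0.00661) and 2.60 ± 0.24 over both (5.31e-05) on the log2 scale. Timp2, an inhibitor of metalloproteases in tissue, fell by 0.99 ± 0.18 in CA3 pyramidal neurons of Ch25h-/- mice (edgeR adjusted p = 0.0489). The list had 1 higher pair in Ch25h+/+, 1 higher and 1 lower in Ch25h-/-, and 1 higher over both.

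Among 14 maturation and trafficking partners (13 tested, 96 pairs), Rhbdf2, the iRhom that carries ADAM17 to the cell surface, rose in microglia by 0.91 ± 0.26 over both genotypes (edgeR adjusted p = 0.0307), as the 1 call of the list. The 8 ligands and partners of the inactive ADAMs, among them Lgi1 to Lgi4, had 0 calls in 55 pairs in the 3 tau comparisons by edgeR.

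The share of all genes called with tau differs widely by class and stands beside these counts: over both genotypes it was 7.18% in microglia, 3.29% in astrocytes, 0.234% in OPCs and between 0.0274% and 0.0762% in DG granule, CA1, CA3 and inhibitory neurons. In Ch25h+/+ it was 1.81% in microglia and 0.616% in astrocytes, and in Ch25h-/- 0.691% and 0.0546%. Among 23 membrane substrates of ADAM10 and ADAM17 (141 pairs), 2 pairs rose with tau in Ch25h+/+, 4 in Ch25h-/-, and 8 rose and 1 fell over both. In microglia Axl, a receptor for dying cells, rose by 3.67 ± 0.79 in Ch25h+/+ (edgeR adjusted p = 0.0381) and 3.16 ± 0.53 over both (0.00278), and Aplp2, a relative of the amyloid precursor protein, by 1.01 ± 0.25 (0.0364) and 0.72 ± 0.17 (0.0116). Over both genotypes the cytokine gene Tnf rose in microglia by 1.82 ± 0.51 (edgeR adjusted p = 0.044), and the interleukin 6 receptor gene Il6ra fell by 0.36 ± 0.11 (0.049). The other 5 higher pairs over both, and all 4 in Ch25h-/-, were Prnp, the prion protein gene, in DG granule neurons, CA1 and CA3 pyramidal neurons, inhibitory neurons and OPCs, with log2 fold changes of 0.66 to 1.08 over both. Prnp was at 106 to 152 CPM over all nuclei of the Tau+ libraries and 62.1 to 103 of the Tau- libraries. The labels do not say whether the tau transgene carries Prnp sequence, and this was not tested.

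Among 14 matrix substrates of ADAMTS proteases (13 tested, 71 pairs), Reln, the secreted guidance protein that Adamts3 cuts, rose in the astrocyte sums by 0.58 ± 0.14 over both genotypes (edgeR adjusted p = 0.0256). Reln was at 14.9 CPM in the astrocyte cluster and at 9444 and 2.82 CPM in the 2 Cajal-Retzius clusters (493 and 460 nuclei). The Cajal-Retzius marker list went from 25.4 to 37.3 CPM in the same sums, and the part of those cells in the change was not tested. Sparcl1, a matrix protein made mainly by astrocytes, fell in microglia, with log2 fold changes of -1.12 ± 0.24 in Ch25h-/- (edgeR adjusted p = 0.0335) and -0.83 ± 0.17 over both (0.00357). The part of astrocytes and of free RNA in the Sparcl1 change was not tested. The proteoglycan genes Acan, Bcan, Ncan and Vcan had no call. No pair of the 5 lists was called for Ch25h loss or for the interaction by edgeR.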

How the data were processed

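The deposited files hold UMI counts per gene and barcode, 1 matrix per library, made by the authors with Cell Ranger and the mm10 build. The submitters' processing notes name version 3.1.0 and the file headers version 4. The gene annotation and the treatment of intronic reads are not given in the sources used here, and 48 of 48 member identifiers were found in GENCODE M21.

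From these counts, barcodes with at least 500 UMIs, 300 genes and at most 5% mitochondrial UMIs were kept as nuclei if their UMI count was 3-fold or more that of a median barcode of ranks 40001 to 60000. The nuclei that Scrublet scored highest in each library, 0.8% for every 1000 nuclei it held, were removed as doublets. Nuclei were clustered with Scanpy 1.11.5 (3000 variable genes without ADAM and ADAMTS genes, 50 components, 20 neighbours, Leiden resolution 1). Of 54 clusters, 29 were named from at least 3 markers, and 14974 nuclei stayed unnamed: 14 clusters were mostly doublets, 9 had too few markers, and 2 led with a gene of another type. Clusters with leading genes against their name were set aside after the clusters were seen.

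Counts were summed per library and class for the 9 classes that had 20 or more nuclei in each library, and tested with edgeR 4.0.16 in R 4.3.3 (TMM factors, filterByExpr, robust quasi-likelihood fit with 4 group means over 16 libraries). The standard error is the log2 fold change divided by the square root of the F statistic. The fit was also run on simulated data, and that outcome is not given here. Alternatives were DESeq2 1.42.0, no TMM factors, no filter on low counts, a minimum of 1000 UMIs per nucleus, doublets kept, the 2 sets of libraries as a block or alone, and each library left out in turn. Members, gene lists and tests were chosen with earlier results of these data known. Named genes were every called member and, where a comparison had under 3, the pairs with the lowest p and 10 or more UMIs per library on average. All members with at least 500 UMIs (40) were named with levels by class, except Adam4 and Adam28, whose highest levels are given in a joint range. Levels by cluster within a class, shares of genes called by class and the comparison limited to libraries with at least 20 nuclei were added after the values were seen.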

Additional observations from a re-analysis of the deposited data

Results flagged for a closer look

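In inhibitory neurons Adamts19 was at 5.64 CPM in Ch25h+/+ Tau+ replicate 1, while the other 3 mice of that group were at 2.34 to 2.74 CPM. This library stood apart by its gap to the nearest of the others, in 1 of the 60 groups of 4 mice examined for the members named in the genotype comparisons. Chance flags about 1 group in 20.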

How the results depend on the processing

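No paired analysis was possible because the replicate numbers were given in accession order and the labels tie no mice across groups. The block is the 2 sets of libraries. The 4 genotype comparisons without a call and the 3 tau comparisons were refitted under 8 alternatives and with each library left out, and no value of a called pair changed sign. The count of called member pairs with tau in Ch25h+/+ (1) was 3 with replicates 1 and 2 alone, 0 with replicates 3 and 4 alone, and 1 to 2 with a library left out. In Ch25h-/- (1) it was 3 by DESeq2, 0 without the filter on low counts, 2 with the 2 sets of libraries as a block, 4 with replicates 1 and 2 alone, 0 with replicates 3 and 4 alone, and 0 to 3 with a library left out. Over both genotypes (4) it was 7 by DESeq2, 7 with the block, 8 with replicates 1 and 2 alone, 0 with replicates 3 and 4 alone, and 1 to 6 with a library left out. For Ch25h loss over both tau states (0) it was 1 with replicates 3 and 4 alone, Adamtsl1 in CA1 pyramidal neurons, and 0 to 1 with a library left out. DESeq2 called 11 pairs over all comparisons, among them all 6 of edgeR, and the block 10, among them all 6. Fits to 2 mice per group have fewer residual degrees of freedom, and the other causes were not tested. Low counts limit Adam12 in astrocytes, with a mean of 8.94 UMIs per library.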
